A study of Mus musculus with 30 samples.

Results

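Tubulins are the subunits of microtubules, and 10 mouse genes for them were followed here across 4 organs of mice lacking myotubularin. Of the 36103 genes in the count table, the members were the 6 beta-tubulin genes Tubb6, Tubb2a, Tubb2b, Tubb3, Tubb4b and Tubb5 and the 4 alpha-tubulin genes Tuba1a, Tuba1b, Tuba4a and Tuba8, taken by their symbols. Tubb6 was chosen by its counts in heart and gastrocnemius, where its genotype difference was unlike, so its values in both organs, and every contrast that they enter, are described without a test. The other members were taken for their family, with the same results known.

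Mtm1-/y males, in which the Mtm1 gene on the single X chromosome is knocked out, were compared with wild-type (WT) male littermates on a pure 129Pas background at 5 weeks of age. Mtm1 encodes the phosphoinositide phosphatase myotubularin, whose loss causes X-linked centronuclear (myotubular) myopathy. RNA came from whole snap-frozen gastrocnemius (4 WT and 4 Mtm1-/y), diaphragm (4 WT and 3 Mtm1-/y), heart (4 WT and 4 Mtm1-/y) and liver (3 WT and 4 Mtm1-/y), one poly-A, strand-marked library per sample.

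Microtubules are polymers of a dimer of 1 alpha- and 1 beta-tubulin, and most vertebrates carry several genes for each. The encoded isotypes are nearly alike in the globular body and differ mostly in an acidic tail at the carboxyl end, which lies on the outside of the microtubule and is the place where glutamate chains are added and where the last tyrosine of some alpha-tubulins is removed and put back. In skeletal muscle fibres microtubules form a grid under the surface membrane and a shell around the nuclei, and they carry organelles, vesicles and mRNA. Cells also hold the amount of tubulin in check through the decay of tubulin mRNA when free dimers are plentiful.

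The coding ends are where these genes are told apart, so the last 20 codons before the stop codon are shown for 7 members, with the codons for aspartate and glutamate in capitals. They were read 5′ to 3′ from the GENCODE M21 transcripts of the mouse reference (GRCm38, strain C57BL/6J), not from the 129 animals.
Tubb2a: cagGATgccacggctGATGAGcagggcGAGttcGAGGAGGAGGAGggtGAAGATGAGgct
Tubb2b: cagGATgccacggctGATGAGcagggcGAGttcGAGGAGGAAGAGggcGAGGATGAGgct
Tubb3: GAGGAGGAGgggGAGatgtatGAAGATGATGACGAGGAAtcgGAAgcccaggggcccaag
Tubb4b: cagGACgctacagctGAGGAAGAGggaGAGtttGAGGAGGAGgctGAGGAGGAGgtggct
Tubb5: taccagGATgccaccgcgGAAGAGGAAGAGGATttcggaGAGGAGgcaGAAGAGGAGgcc
Tuba4a: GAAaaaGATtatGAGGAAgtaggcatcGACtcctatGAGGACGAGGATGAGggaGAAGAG
Tuba8: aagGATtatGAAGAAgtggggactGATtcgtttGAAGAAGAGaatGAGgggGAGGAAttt

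Acidic codons made up 11 of the last 20 in each of the 6 beta-tubulin genes, Tubb6 included, 10 in Tuba8 and 12 in Tuba4a. Neither of these alpha-tubulin genes ended in a tyrosine codon: Tuba4a ended in GAG, for glutamate, and Tuba8 in ttt, for phenylalanine. Over the whole coding sequence Tuba1a and Tuba1b were identical at 98.3% of bases and Tubb2a and Tubb2b at 96.5%, whereas Tubb6 shared 80.2% to 85.9% of bases with the other beta-tubulin genes. Tuba8 shared 78.8% to 80.8% with the other alpha-tubulin genes.

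This likeness bears on the counts, because only reads with a single place in the genome were counted. Every 50-base stretch in the exons of Tubb6 and Tubb3 was unique to the gene, as were 99.9% of those in Tubb5, against 50.4% for Tubb2a, 58.7% for Tubb4b, 24.5% for Tuba1a and 24.9% for Tuba1b. Levels of the closely related genes are therefore understated, while a ratio of one gene between groups rests on the same stretches in both. Tuba4a overlaps Stk16, Tuba8 overlaps Gm15856, Tubb4b overlaps Fam166a and Tuba1b overlaps Gm41396 on the opposite strand. The strand setting of the counting was not stated. Counted without strand, reads in exons shared with the partner would be ambiguous and left out, so these counts could be too low. Tuba1a and Tuba1b overlap the predicted gene Gm49450, and Tubb3 overlaps Gm20388, on the same strand.

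Library totals ran from 24873817 to 44289343 assigned reads over the 30 libraries. Mtm1 stood at 12.5 to 31.7 CPM (counts scaled to a common library total) in WT and at 3.37 to 6.39 CPM in Mtm1-/y libraries, without overlap in any organ. Alb, a hepatocyte gene, ranged from 294 to 33830 CPM within diaphragm and reached both ends in different genotypes, whereas it reached at most 61.0 CPM in gastrocnemius and 102 CPM in heart. CPM values were scaled within each organ by TMM, a method that assumes most genes do not change. A change was called at a Benjamini-Hochberg adjusted p under 0.05 over all genes tested in edgeR's quasi-likelihood test, and errors of log2 fold changes are standard errors. By the study's methods the libraries of a group came from separate mice. Whether libraries of different organs came from the same mice is not given in the sources used here, and the contrasts between organs treat them as separate.

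Tuba4a was the most abundant of the 10 genes in every WT organ when counts were divided by exon length and scaled to a common total (TPM, an estimate of transcript share). It stood at 695 ± 85.9 TPM in gastrocnemius, 533 ± 61.0 in diaphragm, 466 ± 122 in heart (SD, n = 4 each) and 127 ± 17.0 in liver (SD, n = 3). Tuba8 came second in the muscles, with 261 ± 41.3 TPM in gastrocnemius, 243 ± 43.5 in diaphragm and 188 ± 54.7 in heart, and fell away in liver to 1.33 ± 0.226. Together they held most of the alpha-tubulin signal of striated muscle. Tuba4a made up 71.0% of the summed alpha-tubulin TPM in WT gastrocnemius, 65.3% in diaphragm and 65.1% in heart, and Tuba8 made up 26.7%, 29.6% and 26.2%. In liver Tuba4a alone held 92.4%. Tuba1a and Tuba1b, the widespread isotypes that end in tyrosine, stood at 17.1 ± 3.08 and 5.09 ± 0.806 TPM in WT gastrocnemius, on unique reads only.

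Among beta-tubulins, Tubb4b, a gene used in most tissues, led in WT gastrocnemius at 145 ± 26.2 TPM and held 63.5% ± 3.74 of the beta-tubulin TPM there. Heart was shared more evenly, with Tubb4b at 125 ± 19.7 and Tubb5, the common beta-tubulin of dividing and resting cells, at 115 ± 17.97 TPM. Tubb5 stood at 44.5 ± 7.45 TPM in gastrocnemius and 80.5 ± 6.91 in diaphragm. In liver Tubb2a reached 69.1 ± 14.3 TPM, beside 64.4 ± 17.3 for Tubb4b and 62.2 ± 6.47 for Tubb5. Tubb6 was a minor beta-tubulin in every WT organ, with 25.8 ± 6.51 TPM in heart, 22.7 ± 1.54 in diaphragm, 16.3 ± 2.60 in gastrocnemius and 8.71 ± 1.64 in liver. Tubb2b stood between 2.25 and 3.75 TPM in the muscles. Tubb3, best known from neurons, had 1 to 7 counts per WT gastrocnemius library, 4 to 11 in diaphragm and 0 or 1 in liver, and in heart it ranged from 4 to 61.

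**Figure D1:**
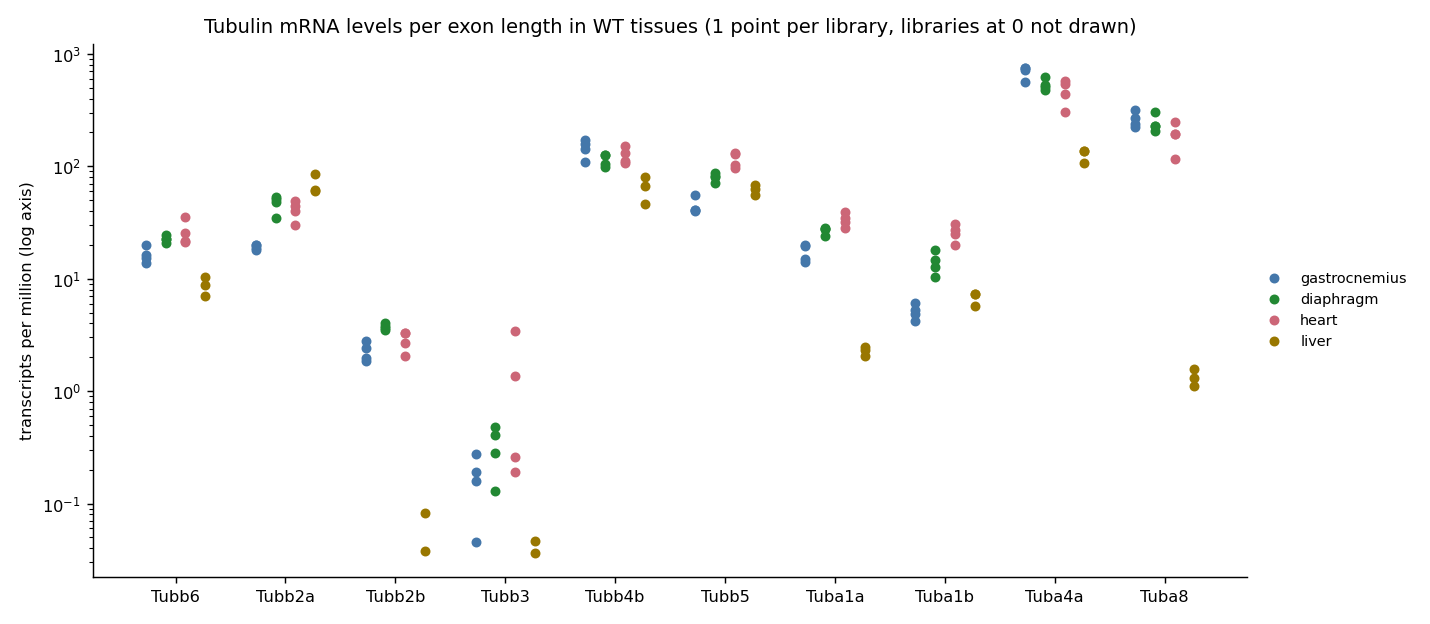
Level of each tubulin gene in the 4 WT organs, in TPM on a log axis, with 1 point per library (4 per muscle, 3 for liver) and libraries at 0 not drawn. Tuba4a lies highest in every organ (means 695 TPM in gastrocnemius and 127 TPM in liver), and Tuba8 drops from 261 TPM in gastrocnemius to 1.33 TPM in liver.

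The organs differed in which members they used. In one fit of the 15 WT libraries, 61.3% of all 17725 genes tested differed between heart and gastrocnemius (32.6% higher and 28.7% lower in heart), and 8 of the 9 tested tubulins did. Tubb3 was 1 of the 8. It passed the low-count filter only through the libraries where it was high, and it fell under the filter without WT heart replicate 1 or 2 or WT diaphragm replicate 4, so its calls between organs carry no weight, which leaves 7 of 8. Tuba1b was 1.72 ± 0.16 (log2 fold change) higher in heart (adjusted p = 6.49e-07) and Tubb5 0.75 ± 0.11 higher (adjusted p = 4.24e-05). Tubb2a (0.50 ± 0.18) and Tuba1a (0.37 ± 0.13) were also higher in heart. The higher values of Tubb3 lay in WT heart replicates 1 and 2 alone (2.29 and 0.951 CPM, against 0.131 and 0.158 in replicates 3 and 4). Tuba4a was 1.18 ± 0.20 lower in heart on the log2 scale (log2 fold change -1.18, adjusted p = 0.000166), Tuba8 had a log2 fold change of -1.07 ± 0.21 and Tubb4b of -0.82 ± 0.17. Tubb2a missed the threshold without any one of WT gastrocnemius replicates 1 to 4 or WT heart replicates 1 to 3 (adjusted p = 0.0519 to 0.0775), and Tuba1a without gastrocnemius replicate 2 or 4 or heart replicate 1 or 2 (0.054 to 0.0667).

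Diaphragm differed from gastrocnemius for 6 of the 9 tested members, beside 54.4% of all genes tested (23.8% higher and 30.6% lower in gastrocnemius). Tubb4b (log2 fold change 0.87 ± 0.17), Tuba4a (0.90 ± 0.20) and Tuba8 (0.62 ± 0.21) were higher in gastrocnemius, and Tubb2a (-0.79 ± 0.18), Tubb5 (-0.35 ± 0.11) and Tuba1b (-0.94 ± 0.16) were lower there. Between heart and diaphragm 51.7% of all genes tested (22.1% higher and 29.6% lower in heart) and 3 of the 9 tested members were called. Tubb5 (0.40 ± 0.11) and Tuba1b (0.77 ± 0.16) were higher in heart, and the sparse Tubb3 made up the third, called in 3 of the 15 fits that left out 1 library, not called in 9 and under the filter in 3. Of the other calls, those of Tuba8 and Tubb5 depended on single libraries. Between gastrocnemius and diaphragm, Tuba8 was lost without gastrocnemius replicate 1 or 4 or diaphragm replicate 1 or 4 (adjusted p = 0.0552 to 0.107) and Tubb5 without gastrocnemius replicate 3 (0.0556). Between heart and diaphragm, Tubb5 was lost without diaphragm replicate 3 or heart replicate 1 or 4 (0.0529 to 0.0691). Tubb2a passed without diaphragm replicate 3 (0.01995), Tubb2b without liver replicate 1 (0.0357) and Tuba8 without diaphragm replicate 4 or heart replicate 1 (0.0449 and 0.0208). Alb stood at 26580, 17700 and 19260 CPM in WT diaphragm replicates 1, 2 and 4 and at 294 CPM in replicate 3. Replicate 3 was the lowest WT diaphragm for Tubb2a (20.8 CPM), Tubb5 (88.6) and Tuba1b (7.24). It was the highest for Tuba4a (854), Tuba8 (258) and Tubb4b (97.3). The part of liver RNA in the contrasts with WT diaphragm was not tested.

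Scaling touched these muscle contrasts. With library totals in place of TMM, an alternative chosen after the data were seen, Tuba4a and Tuba8 no longer passed between gastrocnemius and diaphragm (log2 fold change 0.38 and 0.10), Tubb4b no longer passed in either contrast (0.35 there, and -0.22 between heart and gastrocnemius), and Tubb2b (-0.74) and Tuba1a (-0.66) passed between gastrocnemius and diaphragm, where 69.4% of all genes then did, beside 72.6% between heart and gastrocnemius. Tubb6, given without a test, had log2 fold changes of 0.04 ± 0.13 for heart against gastrocnemius, 0.04 ± 0.13 for gastrocnemius against diaphragm and 0.08 ± 0.13 for heart against diaphragm. With library totals the first 2 became 0.64 and -0.48, beside medians of 0.67 and -0.59 over all genes tested.

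Liver stood furthest from the muscles, with 79.5% of all genes tested (37.1% higher and 42.4% lower in liver) and 8 of the 9 tested members (7 of 8 without Tubb3) differing from the mean of the 3 WT muscles. Tuba8 had a log2 fold change of -7.02 ± 0.31 (adjusted p = 1.39e-10), Tuba1a of -3.03 ± 0.15, Tuba4a of -1.73 ± 0.21, Tubb4b of -0.58 ± 0.17 and Tuba1b of -0.43 ± 0.15. Tubb2b had 0 to 2 counts per WT liver library against 53 to 140 in the WT muscles. It passed the low-count filter through the muscles alone. Its call, still counted in the 7 of 8, therefore carries no weight, and its counts are a description. Tubb3 had 0 or 1. Tuba1b missed the threshold without WT liver replicate 3 (adjusted p = 0.0899). Tubb2a was the member higher in liver, by 1.46 ± 0.15 (adjusted p = 5.72e-07). Tubb5 did not pass (0.16 ± 0.10, adjusted p = 0.158), and Tubb6, given without a test, had a log2 fold change of -0.87 ± 0.13.

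In gastrocnemius 4 of the 8 tested tubulins differed between the genotypes, in an organ where 29% of the 15456 genes tested were called, 14.1% higher and 14.9% lower. Tubb6 stood at 19.0, 14.5, 15.01 and 17.2 CPM in the 4 WT libraries and at 149.8, 155, 99.8 and 87.4 CPM in the 4 Mtm1-/y libraries. The lowest Mtm1-/y value lay far above the highest WT value. The fitted difference was 7.49-fold (log2 fold change 2.91 ± 0.20), given without a test because these values chose the gene. Of the other 9 members, 8 passed the filter on low counts and were tested, and the 4 calls were 3 higher and 1 lower.

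Tubb5 (ENSMUSG00000001525, chr17:35833921-35838306, minus strand) stood at 72.3, 58.7, 53.8 and 59.2 CPM in WT and at 92.7, 96.4, 110.4 and 84.2 CPM in Mtm1-/y gastrocnemius. All Mtm1-/y libraries lay above all WT libraries, and the log2 fold change was 0.65 ± 0.11 (adjusted p = 0.00196). Tubb2a (ENSMUSG00000058672, chr13:34074274-34078007, minus strand), a beta-tubulin prominent in nerve and, here, in liver, held a narrow WT range of 12.50 to 12.96 CPM. Its Mtm1-/y libraries stood at 28.4, 22.1, 23.0 and 13.9 CPM, again without overlap, although replicate 4 was close to WT. The log2 fold change was 0.78 ± 0.18 (adjusted p = 0.00937).

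Tuba1b (ENSMUSG00000023004, chr15:98931425-98934565, minus strand) was the 1 alpha-tubulin member called higher. It stood at 4.45, 3.38, 3.62 and 4.28 CPM in WT and at 6.81, 7.68, 8.99 and 7.86 CPM in Mtm1-/y libraries, a log2 fold change of 0.99 ± 0.13 (adjusted p = 0.000683) on 92 to 322 unique reads per library. Tuba8 (ENSMUSG00000030137, chr6:121210696-121226854, plus strand), the alpha-tubulin that among these organs was at home in striated muscle, was the member that fell. It stood at 279, 233, 201 and 263 CPM in WT and at 185, 199.8, 195 and 163 CPM in Mtm1-/y libraries, and WT replicate 3 lay just above the highest Mtm1-/y library. The log2 fold change of Tuba8 was -0.39 ± 0.11 (adjusted p = 0.0221).

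The remaining members of gastrocnemius did not pass. Tubb2b had a log2 fold change of 0.63 ± 0.23 (adjusted p = 0.0633), Tubb4b of 0.34 ± 0.14 (adjusted p = 0.102), Tuba1a of 0.34 ± 0.15 (adjusted p = 0.111) and Tuba4a, the main alpha-tubulin, of -0.20 ± 0.12 (adjusted p = 0.257). Without Mtm1-/y replicate 4, Tubb2b (adjusted p = 0.0108) and Tuba1a (adjusted p = 0.0256) were called. Tubb3 was too sparse to be tested, with 1 to 7 counts in each WT library and with 3.21 CPM in Mtm1-/y replicate 3 against 0 to 0.393 CPM in the other Mtm1-/y libraries. Groups did not overlap for Tubb6, Tubb2a, Tubb5 and Tuba1b, all higher, and for Tuba8, lower, while 14.7% and 16% of all genes tested were higher and lower without overlap.

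**Figure D2:**
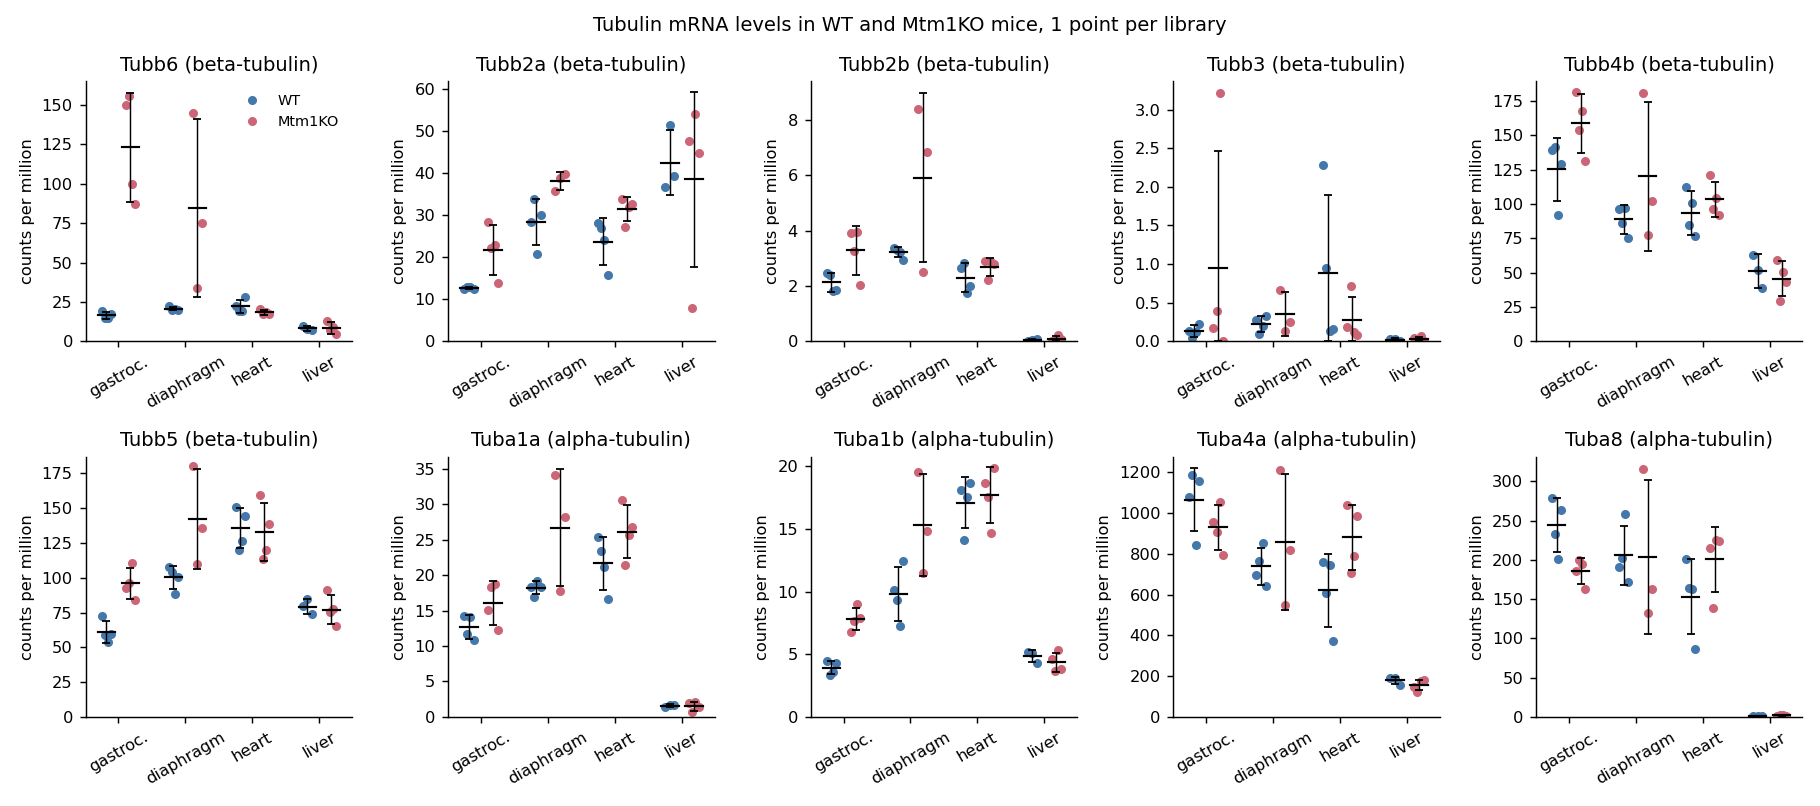
CPM of each of the 10 tubulin genes in every library, by organ and genotype, with the group mean as a line and the SD as a bar cut at 0. In gastrocnemius the 4 Mtm1-/y libraries of Tubb6 lie between 87.4 and 155 CPM and the WT libraries between 14.5 and 19.0 CPM, while in heart the genotypes overlap.

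The call for Tuba8 and the sign of Tuba4a in gastrocnemius rested on the scaling. The median gene tested had a log2 ratio of Mtm1-/y to WT of 0.02 with TMM and of 0.35 with library totals. With library totals, 7647 genes were called higher and 647 lower, in place of 2173 and 2306, and 6 of the 8 tested members were called, all higher, beside 49.5% of all genes: Tubb2a, Tubb5 and Tuba1b with Tubb2b (0.97), Tubb4b (0.68) and Tuba1a (0.67). Tuba8 then had a log2 fold change of -0.06 (adjusted p = 0.696) and Tuba4a of 0.15, both below the median gene. Tuba8 also missed the threshold without WT replicate 1 or 4 (adjusted p = 0.0575 and 0.0611) or Mtm1-/y replicate 1 or 4 (0.0521 and 0.0592). Tubb5, Tuba1b and Tubb2a kept their call without any single library, while in one edgeR fit over all 30 libraries Tubb2a (adjusted p = 0.114) and Tuba8 (0.312) lost theirs.

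Cell type markers moved in the same gastrocnemius libraries. The 10 macrophage markers summed to 57.4 to 102 CPM in WT and 170 to 206 CPM in Mtm1-/y, with 9 called higher, and 6 of 10 fibroblast and 6 of 10 white adipocyte markers were called higher. The median log2 fold changes of these lists were 1.19, 0.46 and 1.30, beside 0.02 over all genes tested. Their sums overlapped between WT and Mtm1-/y for fibroblasts (3172 to 8339 and 4099 to 10450 CPM) and for adipocytes (3229 to 4505 and 2801 to 3688 CPM). Endothelial markers summed to 505.9 to 638.9 CPM in WT and 368.5 to 485.9 CPM in Mtm1-/y (3 of 10 called lower), and smooth muscle and pericyte markers to 3300 to 4109 and 4275 to 5976 CPM (2 of 8 higher and 2 lower), both without overlap. Proliferation markers gave 2 higher and 1 lower of 10, and Schwann cell and neuron markers 1 lower of 8 tested. Of the 10 markers of regenerating or immature fibres, 7 were called higher and 1 lower. The latter was Actc1, cardiac actin, which fell from 6542 ± 378 to 1456 ± 821 CPM, while Myh3, embryonic myosin, stood at 8.56 ± 0.987 and 120.5 ± 97.0 CPM (both named after their values were seen). The sum of this list, 6303 to 7034 CPM in WT and 845.4 to 2573 CPM in Mtm1-/y, was mostly Actc1. The summed fast fibre markers stood at 186100 to 219400 CPM in WT and at 115900 to 136300 CPM in Mtm1-/y libraries, with 8 of 10 called lower and 2 higher. The part of these cell types in the tubulin values was not tested, and in whole tissue fewer cells of a type and less RNA per cell cannot be told apart.

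Upstream sequence is shown for the 4 members called in gastrocnemius, since they moved in 2 directions. It was taken from RefSeq for GRCm38.p6, which held promoters for 8 of the 10 members, and was trimmed to bases before the annotated gene start. Each is written 5′ to 3′ on the gene's strand. Capitals mark letters found on either strand. TATAAA is the TATA box near the start of some genes. CCAAT names its own box. The GC box, bound by Sp factors, reads GGGCGG. The cAMP response element, bound by CREB, reads TGACGTCA.
Tubb2a, chr13:34078009-34078258, minus strand: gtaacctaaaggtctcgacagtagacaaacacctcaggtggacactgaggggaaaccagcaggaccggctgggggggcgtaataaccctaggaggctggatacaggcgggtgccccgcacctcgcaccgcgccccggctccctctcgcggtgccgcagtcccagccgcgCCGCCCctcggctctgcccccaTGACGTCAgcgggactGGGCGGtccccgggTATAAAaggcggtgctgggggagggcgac
Tubb5, chr17:35838307-35838551, minus strand: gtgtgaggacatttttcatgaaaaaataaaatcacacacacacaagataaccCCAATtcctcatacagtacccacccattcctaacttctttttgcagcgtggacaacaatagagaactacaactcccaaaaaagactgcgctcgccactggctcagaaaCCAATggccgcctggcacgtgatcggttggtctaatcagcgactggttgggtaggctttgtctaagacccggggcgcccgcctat
Tuba1b, chr15:98934566-98934640, minus strand: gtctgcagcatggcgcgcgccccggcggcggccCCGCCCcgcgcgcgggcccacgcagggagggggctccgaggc
Tuba8, chr6:121210484-121210695, plus strand: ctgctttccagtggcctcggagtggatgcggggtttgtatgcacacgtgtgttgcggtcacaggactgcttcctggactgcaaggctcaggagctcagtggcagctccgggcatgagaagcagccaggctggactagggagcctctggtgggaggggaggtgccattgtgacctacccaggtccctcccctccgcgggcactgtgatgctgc

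Tubb2a was the 1 member of 8 with a TATA box, 29 bases before the RefSeq start, and the 1 with a cAMP response element, at 59 bases. Over all 32851 RefSeq promoters of the same 250 bases, 12.4% held the TATA box and 1.55% the cAMP response element. The CCAAT box was found in 4 of the 8 members, among them Tubb5 at 90 and 198 bases, beside 33.8% of all promoters, and the GC box in 6 of 8, beside 32.7%. Tuba8 held none of these letters and 2 E-boxes (CANNTG), a motif found in 7 of 8 members and 66.2% of all promoters. None of the 8 held a CArG box, found in 1.47% of all. A match or its lack describes these letters in the reference window only.

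Diaphragm gave larger Tubb6 values in all 3 Mtm1-/y libraries, but the spread was wide. Tubb6 stood at 22.1, 20.1, 20.6 and 20.02 CPM in WT and at 145, 33.7 and 75.3 CPM in Mtm1-/y replicates 1, 2 and 4. The groups did not overlap, and the log2 fold change of 2.03 ± 0.43 did not pass (edgeR adjusted p = 0.268, unadjusted p = 0.00201 in a fit over all genes). In this organ 0.0119% of the 16796 genes tested were called, 2 in all, and 1806 had an unadjusted p under 0.05. None of the 9 tested tubulins was called by edgeR, and 6 of them had an unadjusted p under 0.05.

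The result for Tubb6 in diaphragm turned on the model and on 1 library. DESeq2 called it (adjusted p = 0.000359) beside 1.41% of 31125 genes, and weighted limma did not (adjusted p = 0.0594). The edgeR fit over all 30 libraries gives no test of Tubb6, because the heart and gastrocnemius values that chose it enter its estimate of the spread. Without Mtm1-/y replicate 2, whose Alb level was the highest of the diaphragms at 33830 CPM, edgeR called Tubb6 (log2 fold change 2.41 ± 0.24, adjusted p = 0.0397), Tubb2b (1.24 ± 0.16, adjusted p = 0.0417) and Tuba1a (0.77 ± 0.12, adjusted p = 0.0486), beside 0.937% of all genes. Alb stood at 26580, 17700, 294 and 19260 CPM in WT and at 1685 and 565 CPM in the Mtm1-/y libraries then left, which both lay below 3 of the 4 WT libraries. The part of liver RNA in these values was not tested.

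The other diaphragm members had log2 fold changes between -0.02 and 0.88. Tubb5 stood at 88.6 to 108 CPM in WT and 109.6 to 180 CPM in Mtm1-/y libraries (log2 fold change 0.50 ± 0.18, adjusted p = 0.397), and Tubb2a at 20.8 to 34.0 and 35.8 to 39.8 CPM (0.43 ± 0.17, adjusted p = 0.423). With Tubb6 these were the members whose Mtm1-/y libraries all lay above WT, as did 5.4% of all genes tested. Tubb2b (0.88 ± 0.37), Tuba1b (0.65 ± 0.24), Tuba1a (0.55 ± 0.21), Tubb4b (0.44 ± 0.28), Tuba4a (0.22 ± 0.27) and Tuba8 (-0.02 ± 0.31) overlapped. Tubb3 had 3 to 31 counts per library. Summed markers of regenerating fibres stood at 169 to 599 CPM in WT and 680 to 1012 CPM in Mtm1-/y diaphragm, fibroblast markers at 2411 to 5112 and 5408 to 11780 CPM, and endothelial markers at 755.5 to 919.1 and 663.8 to 739.4 CPM, each without overlap. No gene of these lists was called by edgeR in diaphragm, and the sums of the other marker lists overlapped there. The part of these cell types in the tubulin values was not tested.

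In heart Tubb6 had a slightly lower mean in Mtm1-/y libraries. It stood at 22.3, 19.3, 19.4 and 28.0 CPM in WT and at 20.8, 17.1, 18.3 and 17.6 CPM in Mtm1-/y heart, overlapping groups with a log2 fold change of -0.27 ± 0.13, given without a test. Without WT replicate 4, the highest of the 8 values, the log2 fold change of Tubb6 was -0.14. None of the 8 tested members was called, 1 of them (Tubb2a) with an unadjusted p under 0.05, in an organ where 0.00656% of 15238 genes were, 1 in all, with 1353 at an unadjusted p under 0.05 and 85 (0.288%) called by DESeq2. No member had groups apart, as 4.26% of all genes tested did. Tuba4a (0.50 ± 0.23, adjusted p = 0.546), Tubb2a (0.41 ± 0.17, adjusted p = 0.546) and Tuba8 (0.39 ± 0.25, adjusted p = 0.568) had the largest log2 fold changes. WT heart replicate 4 was the lowest heart library for these 3 genes, at 371, 15.7 and 85.9 CPM. Tubb5 (-0.03 ± 0.12) and Tuba1b (0.05 ± 0.12), both called in gastrocnemius, lay near 0.

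The difference between heart and gastrocnemius in the genotype effect was itself tested in a fit of the 16 libraries, in which 19.8% of 16627 genes passed. Tuba1b (-0.92 ± 0.18, adjusted p = 0.00284) and Tubb5 (-0.66 ± 0.17, adjusted p = 0.0138) had a lower effect in heart, as did 9.89% of all genes, while 9.94% had a higher one. The other 7 tested members did not pass. Tuba8 (0.80 ± 0.29, adjusted p = 0.0666) and Tuba4a (0.72 ± 0.28, adjusted p = 0.0765) had positive differences, which DESeq2 called (adjusted p = 0.025 and 0.030), as it did the sparse Tubb3 (0.0373). Tuba8 also passed in edgeR without WT heart replicate 1 or Mtm1-/y heart replicate 2 (0.0404 and 0.0265), and Tubb3 without Mtm1-/y gastrocnemius replicate 4 or Mtm1-/y heart replicate 2 (0.0427 and 0.0492). The calls of Tubb3 carry no weight here either. It fell under the filter in both single-organ fits. Mtm1-/y gastrocnemius replicate 3 held 115 counts of it, against 0 to 13 in the other Mtm1-/y gastrocnemius libraries. Tubb6 differed by -3.16 ± 0.25, the value that chose it. Between gastrocnemius and diaphragm, where 0.28% of 17509 genes passed, none of the 9 tested members did (edgeR), with 0 at an unadjusted p under 0.05, and Tubb6 differed by 0.88 ± 0.48, given without a test since its gastrocnemius values chose it. These contrasts share the gastrocnemius libraries with each other and with the single-organ comparison.

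**Figure D3:**
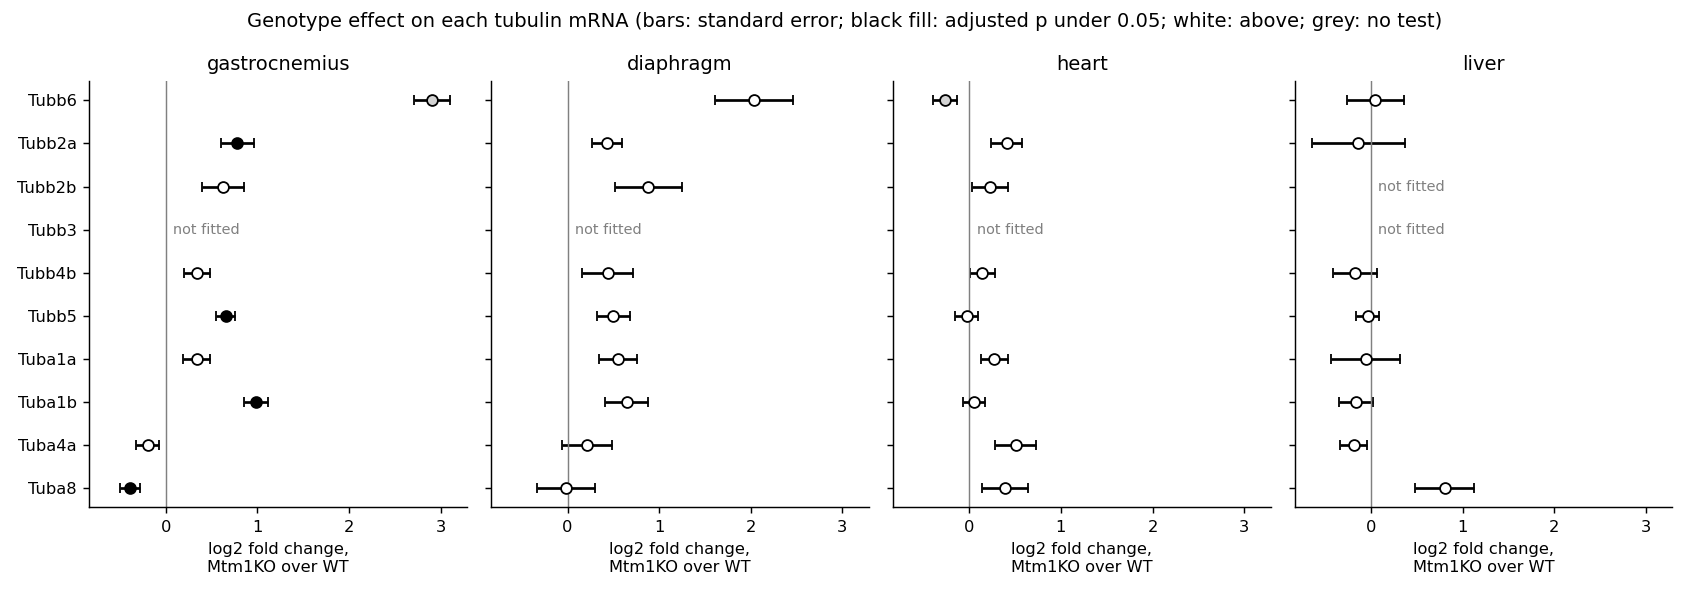
Log2 fold change of Mtm1-/y over WT with its standard error for each tubulin gene in the 4 organs. Black marks were called at an adjusted p under 0.05, white marks were not, grey marks of Tubb6 carry no test, and genes under the low-count filter are written as not fitted. Tubb6 stands at 2.91 in gastrocnemius, 2.03 in diaphragm and -0.27 in heart.

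Liver showed no called member, and no gene of 14305 was called there by edgeR (0%), with 606 at an unadjusted p under 0.05 and 25 (0.0914%) called by DESeq2. Tubb6 stood at 9.48, 7.94 and 6.92 CPM in WT and at 13.2, 6.94, 8.82 and 4.69 CPM in Mtm1-/y liver (log2 fold change 0.04 ± 0.31, adjusted p = 0.994). Its groups overlapped fully. Tuba8 was higher in all Mtm1-/y livers at 1.58, 3.04, 2.11 and 1.34 CPM against 1.11, 1.32 and 1.02 CPM in WT (0.80 ± 0.32, adjusted p = 0.969), on 27 to 84 counts per library. It was the 1 tested member with an unadjusted p under 0.05. Summed fast fibre markers stood at 31.7, 92.2, 8.40 and 5.99 CPM in Mtm1-/y livers 1 to 4 and at 18.2 to 23.7 CPM in WT livers. The part of muscle RNA in the Tuba8 values was not tested. Higher values without overlap were found for 2.62% of all genes tested. Tubb2a stood at 7.95 CPM in Mtm1-/y replicate 2 and between 36.8 and 54.1 CPM in the other livers. The remaining tested members had log2 fold changes from -0.19 to -0.04, and Tubb2b (0 to 7 counts) and Tubb3 (0 to 2 counts) were too sparse for a fold.

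Seen as a share of the beta-tubulin TPM, Tubb6 went from 7.23% ± 0.942 in WT to 29.3% ± 4.97 in Mtm1-/y gastrocnemius (SD, n = 4 each) and from 8.48% ± 0.361 (n = 4) to 19.9% ± 6.83 (n = 3) in diaphragm. It made up 8.32% ± 1.95 and 6.44% ± 0.201 in heart and 4.26% ± 0.510 and 4.85% ± 1.67 in liver. As shares sum to 100%, others gave way. Tubb4b stood at 63.5% ± 3.74 in WT and 44.7% ± 2.998 in Mtm1-/y gastrocnemius, while its own log2 fold change in CPM was 0.34. These shares are descriptions, and the share of Tubb6 in gastrocnemius follows from the values that chose it.

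The summed beta-tubulin TPM stood at 227 ± 33.8 in WT and 545 ± 85.3 in Mtm1-/y gastrocnemius, a log2 ratio of 1.26. The median gene had a log2 ratio of 0.41 on this scale, which left 0.85 relative to it. This sum holds Tubb6, whose values chose it, and without Tubb6 it was 211 ± 32.2 and 384 ± 56.7 TPM, or 0.45 relative to the median gene. In diaphragm the sums were 268 ± 15.7 and 477 ± 211, or 0.73 relative to the median gene and 0.50 without Tubb6. The Mtm1-/y diaphragm libraries stood at 699, 279.5 and 452 TPM with Tubb6, and replicate 2, at 279.5, lay within the WT range of 258 to 291. The summed alpha-tubulin TPM of gastrocnemius was 978 ± 117 in WT and 1106 ± 132 in Mtm1-/y, which is -0.23 on the log2 scale relative to the median gene. The ratio of alpha to beta TPM was accordingly 4.32 ± 0.225 in WT and 2.05 ± 0.224 in Mtm1-/y gastrocnemius libraries, and 4.66 ± 0.251 and 2.89 ± 0.184 without Tubb6. It was 3.06 ± 0.468 and 2.12 ± 0.0751 in diaphragm. In heart it was 2.30 ± 0.514 and 2.97 ± 0.339, and in liver 0.672 ± 0.0209 and 0.673 ± 0.153. WT heart replicate 4 stood at 1.54. The other WT hearts, at 2.48 to 2.68, overlapped the 2.59 to 3.42 of the Mtm1-/y hearts. Within the alpha family the 2 main genes moved little in gastrocnemius, with Tuba4a at 71.0% ± 2.46 and 72.4% ± 1.45 and Tuba8 at 26.7% ± 2.14 and 23.8% ± 1.31. The minor Tuba1b stood at 0.523% ± 0.0759 in WT and 1.21% ± 0.157 in Mtm1-/y, and Tuba1a at 1.78% ± 0.453 and 2.56% ± 0.297. Unique-read counting lowers the shares of Tuba1a, Tuba1b, Tubb2a and Tubb4b in both genotypes.

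**Figure D4:**
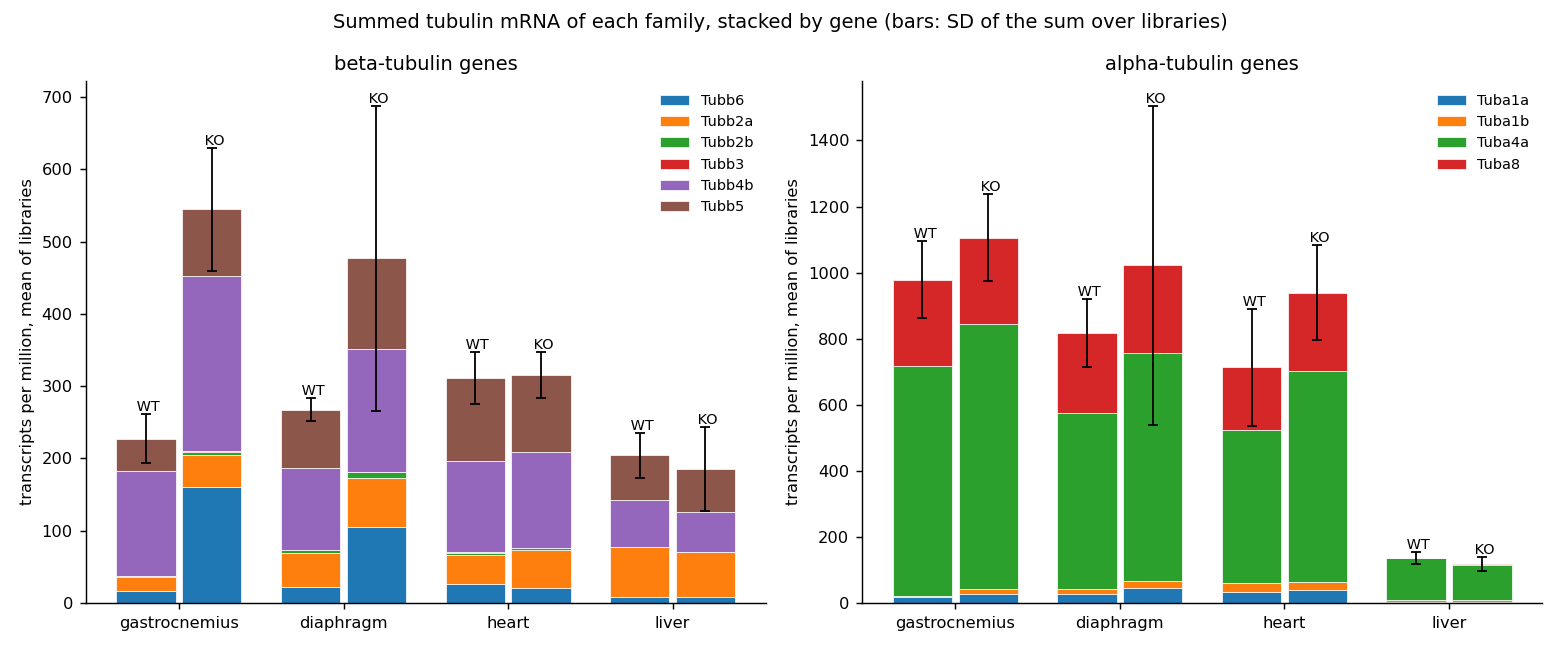
Summed TPM of the beta-tubulin and alpha-tubulin members by organ and genotype, stacked by gene, with the SD of the sum over libraries. In gastrocnemius the beta-tubulin sum stands at 227 TPM in WT and 545 TPM in Mtm1-/y, and the alpha-tubulin sum at 978 and 1106 TPM.

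Further tubulin genes and the proteins that fold, modify, bind and use tubulin were read in the same fits. In gastrocnemius, where 29% of all genes were called, 3 of 6 tested other tubulins were. Tuba1c, a close relative of Tuba1b, was higher (log2 fold change 1.09 ± 0.19, adjusted p = 0.00237), and Tubg1, gamma-tubulin of the nucleating ring complex (-0.31 ± 0.07, adjusted p = 0.0107), and Tubd1 (-0.58 ± 0.14, adjusted p = 0.0123) were lower. The median log2 fold change of these 6 was -0.34, beside 0.02 over all genes tested. All 8 subunits of the CCT chaperonin, which folds new tubulin, were tested and none was called, with Tcp1 at -0.02 ± 0.07, Cct5 at 0.02 ± 0.08 and a list median of 0.05. Of 13 prefoldin and tubulin cofactor genes, 5 were higher and 2 lower, among them the cofactors Tbce (0.35 ± 0.07), Tbcc (0.74 ± 0.15) and Tbcb (0.43 ± 0.09), which assemble the dimer, all higher (list median 0.09). Ttc5, which recognises nascent tubulin and starts the decay of its mRNA, had a log2 fold change of 0.05 ± 0.09 (adjusted p = 0.717).

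Of 18 tested enzymes acting on the tubulin tail, 3 were higher and 3 lower in gastrocnemius, with a median log2 fold change of 0.08. Ttll7, a polyglutamylase that prefers beta-tubulin tails, fell from 240.1 ± 38.8 to 110.9 ± 7.40 CPM (log2 fold change -1.11 ± 0.11, adjusted p = 0.000226). Vash2, a vasohibin that removes the final tyrosine of alpha-tubulin, rose from 4.25 ± 0.945 to 10.6 ± 1.73 CPM (1.32 ± 0.17, adjusted p = 0.000664), and Ttll12 rose by 0.63 ± 0.12. Of 3 genes of lysine acetylation, the acetyltransferase Atat1 was higher (0.44 ± 0.12, adjusted p = 0.0202). Microtubule-associated proteins split evenly, with 4 of 29 higher and 4 lower and a median of -0.02. Map1a, a stabilising protein, rose from 22.9 ± 5.10 to 61.0 ± 15.3 CPM (1.41 ± 0.20, adjusted p = 0.001), and Map1b (0.57 ± 0.10) and Jpt1 (0.48 ± 0.07) also rose. Of 19 motor genes (median 0.06) 4 were higher, among them Dync1i2 of dynein (0.23 ± 0.06) and Dctn2 of dynactin (0.24 ± 0.07), and 1 was lower, the kinesin Kif1c (-0.46 ± 0.09). With library totals, where the median gene stood at 0.35, Ttll7 was the 1 gene of these lists still called lower (-0.77), while Tubg1 (0.03), Tubd1 (-0.25) and Kif1c (-0.13) were not called. All 8 CCT subunits and Ttc5 were then called higher, with medians of 0.39 and 0.38, and the calls among 29 microtubule-associated proteins became 17 higher and 0 lower, where 49.5% of all genes were called higher.

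In diaphragm, heart and liver edgeR called no gene of these 8 lists, in organs where it called 0.0119%, 0.00656% and 0% of all genes. An unadjusted p under 0.05 was reached by 12 of 99 tested list genes in diaphragm, 4 of 95 in heart and 3 of 89 in liver. The 2 most abundant genes of a list gave examples. In diaphragm Cct5 and Tcp1 both stood at 0.17 on the log2 fold change scale, Map4 at 0.18 ± 0.23 and Kif1c at -0.21 ± 0.18. In heart Tcp1 was at 0.11 ± 0.08, Map4 at 0.10 ± 0.10 and Agtpbp1, a deglutamylase, at -0.15 ± 0.14.

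As a description, the genes whose log2 CPM followed Tubb6 most closely over all 30 libraries, among the 14103 genes whose mean reached 1 CPM, were Runx1 (Pearson r = 0.952), Emb (0.931), Gm13889 (0.928), Fez1 (0.926) and S100a4 (0.920). Over the 15 gastrocnemius and diaphragm libraries alone, among 13936 genes, they were Tiam2 (0.971), Eda2r (0.969), Runx1 (0.969), Mustn1 (0.964) and Fam214b (0.960). The points share organ and genotype, so r follows those groups. No other tubulin came near these values. Over 30 libraries the highest were Tubb4b (0.759, rank 162) and Tubb2b (0.7104, rank 289), and over the 15 skeletal muscle libraries Tubb5 (0.753, rank 481), whereas Tuba8 stood at 0.031.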

How the data were processed

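RNA of 30 mouse samples was sequenced as single 50-base reads from strand-marked poly-A libraries. The authors deposited raw counts per gene for Ensembl 96 genes, made with bcl2fastq 2.17.1.14, cutadapt 1.10, STAR 2.5.3a on mm10 and HTSeq 0.6.1p1 in union mode, from uniquely aligned, unambiguous reads. The strand setting of the counting is not given in the sources used here. Groups followed genotype and organ in the labels. Genotype was tested in each organ alone with edgeR 4.0.16 (R 4.3.3): filterByExpr with a minimum count of 10, TMM and the quasi-likelihood test, with Benjamini-Hochberg adjustment over all genes. Interactions used both organs, and WT contrasts all 15 WT libraries. DESeq2 1.42.0 and limma 3.58.1 served as alternatives. The fits were also run on simulated counts, with an outcome that is not given here. Far fewer genes changed in them than were called in gastrocnemius, so they do not bear on the scaling there. TPM used the union of exons of GENCODE M21 as length and each library's own total, and likeness to Tubb6 used log2(CPM + 1).

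The members and the lists were chosen with earlier results of these data known. All members were named. Of each list the 3 called genes with the smallest p were named or, where none was called, 2 with the highest mean CPM, with Mtm1 as the label check and the 5 genes most like Tubb6. Same-numbered samples were checked for pairing by the correlation of their deviations from the group means, which ran from -0.73 to 0.55 between genotypes and exceeded 0.1 for every pair in no comparison, so the numbers were not taken as pairs (between WT muscles r ran from -0.059 to 0.27). Promoter and coding sequences came from RefSeq and GENCODE (the coding ends of Tuba1a and Tuba1b are not reported here), 84 genes without any count stayed untested, and no column was left unmapped (0).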

Additional observations from a re-analysis of the deposited data

Results flagged for a closer look

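In groups of 4 samples, the end value was compared with its nearest neighbour. Of 60 such groups over the 10 members, 4 had a gap above Dixon's 95% critical value, where chance marks about 1 in 20. Mtm1-/y heart replicate 2 accounted for 3 of them, as the lowest library for Tubb2b (2.22 CPM) and Tuba8 (139 CPM, against 215 to 225 CPM in the others) and the highest for Tubb3 (0.712 CPM). The fourth was Tubb3 in Mtm1-/y gastrocnemius replicate 3, at 3.21 CPM.

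The genotype effect differed between heart and gastrocnemius by a tested log2 difference of -0.66 for Tubb5 (adjusted p = 0.0138) and of -0.92 for Tuba1b (adjusted p = 0.00284) in edgeR's fit of 16 libraries.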

How the results depend on the processing

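Requiring an absolute log2 fold change over 1 left 0 called members in gastrocnemius (4 otherwise), 0 in the heart and gastrocnemius difference (2), and 4, 0 and 1 in the WT contrasts of heart with gastrocnemius (8), gastrocnemius with diaphragm (6) and heart with diaphragm (3). Tubb3, whose calls between organs carry no weight, was 1 of these 4 and the 1 between heart and diaphragm. One edgeR fit over all 30 libraries called 2 in gastrocnemius, losing Tubb2a (adjusted p = 0.114) and Tuba8 (0.312). Its 1 call in diaphragm was Tubb6 and is no test, as the values that chose Tubb6 enter that fit. DESeq2 called 1 in diaphragm and 5 in the heart and gastrocnemius difference, the sparse Tubb3 among them, and library totals called 5 there. The share of all genes called in that difference under these 2 settings is not given here, so the counts are no result about tubulins. With library totals, chosen after seeing the data, signs turned for Tuba4a in gastrocnemius (0.15), Tuba1b in heart (-0.010) and Tubb6 between WT gastrocnemius and diaphragm (-0.48), and with weighted limma for Tubb6 in liver (-0.092). Leaving out 1 library at a time gave 0 to 3 called members in diaphragm. It gave 2 to 4 in the heart and gastrocnemius difference and 5 to 8 between WT heart and gastrocnemius, both counting Tubb3 where it was called. The log2 fold changes then crossed 0 for Tuba1b (-0.028 to 0.13) and Tubb5 (-0.13 to 0.043) in heart, Tubb6 in liver (-0.26 to 0.25), and Tubb6 between WT gastrocnemius and diaphragm (-0.062 to 0.092), heart and diaphragm (-0.12 to 0.14) and heart and gastrocnemius (-0.078 to 0.11). The causes were not tested. The replicate block, whose numbers were not taken as pairs, called 3 members in gastrocnemius (Tuba8 at adjusted p = 0.0518), 0 in diaphragm and 2 in the heart and gastrocnemius difference.

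Dividing by the number of unique 50-base positions put Tubb6 at 4.79% of the beta pool in WT and 21.3% in Mtm1-/y gastrocnemius, 5.81% in WT diaphragm, 5.99% and 4.46% in WT and Mtm1-/y heart and 2.77% in WT liver. Tuba4a then held 63.3%, 59.2% and 83.0% of the alpha pool in WT diaphragm, heart and liver. This divisor leaves out 34.6% of the positions of Tuba4a, shared with Stk16 on the opposite strand. If reads there were counted, which the strand setting decides, these shares are too high. The longest transcript as length gave Tubb6 9.47% in WT diaphragm, 7.20% in Mtm1-/y heart and 4.96% in WT liver, and Tuba4a 76.1%, 71.0%, 70.7% and 93.8% in WT gastrocnemius, diaphragm, heart and liver. Depth limits Tubb3 in every organ and Tubb2b in liver.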
